A study of Mastomys natalensis with 3 samples.

Results

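RNA of gastric cells from Mastomys with a spontaneous ECL cell carcinoid was compared with RNA from animals given loxtidine for 16 weeks. Both samples came from the rodent Mastomys natalensis, in which gastric carcinoids are common, and both were described as cells enriched for enterochromaffin-like (ECL) cells of the gastric mucosa. The comparison used 2 of the 3 arrays of the series, 1 array a group, and all 8740 non-control probe sets of the 8799 on the array. The remaining array, from loxtidine given for 8 weeks, entered the normalization and is quoted beside some values. The labels name no drug for the carcinoid sample, and no untreated control was used here. Strain, age, sex, loxtidine dose and the number of animals per sample are not given in the sources used here. Nor is it given whether animals on loxtidine for 16 weeks carried tumours.

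ECL cells are endocrine cells of the acid-secreting stomach. Gastrin from the antrum acts on their gastrin receptor (Cckbr), and they answer with histamine, which is made by histidine decarboxylase (Hdc), packed into vesicles by Slc18a2 and released to drive acid secretion by parietal cells. Loxtidine blocks the histamine receptor of the parietal cell. Loss of acid raises gastrin, and lasting high gastrin makes ECL cells multiply and can lead to carcinoids in rodents. Carcinoids also arise in ageing Mastomys without a drug. The comparison therefore sets ECL-enriched cells of Mastomys with a spontaneous carcinoid beside those of Mastomys under drug-induced acid block. Below, "the carcinoid" names the first of these samples, and its share of tumour cells was not measured here.

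Each array measured Mastomys RNA with probes designed for rat, so a probe set could be dim through sequence mismatch, and levels are compared only within a probe set. Values are quantile-normalized intensities. A floor was set at 12.4, the pooled median of the normalized values. A fold is given where both arrays reached the floor, "at least" a fold where 1 did, and none where neither did. Differences are carcinoid minus 16 weeks on the log2 scale. With 1 array a group no standard error or p-value can be given, and animal, tumour, array lot and group cannot be told apart. In RNA of mixed cells, fewer cells of a type and less RNA per cell also cannot be told apart.

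Quality measures of the array pair were not equal. The 3' to 5' signal ratio, which rises with RNA degradation, was 1.43 at 16 weeks and 2.31 in the carcinoid for GAPDH, and 6.71 and 11.7 for beta-actin. Of 38 controls without a known target in this RNA, 9 reached the floor on each array of the pair, and 0 and 3 reached 30. The 8-week array had higher ratios, 8.95 for GAPDH and 16.1 for beta-actin, and 5 of these controls reached 30 on it. Values quoted from the 8-week array below carry this difference in quality. All 9 bacterial hybridisation controls read lower on the carcinoid array as deposited (median -0.33, range -0.83 to -0.14). Their part in the results below was not tested, except that scaling to these controls was run as an alternative.

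Most transcripts differed little between the carcinoid and 16-week arrays. Of 3311 probe sets at the floor or above on both arrays, 2122 (64.1%) lay within 1.5-fold of each other, and the median difference was 0.01 with an SD of 0.68 over probe sets. In the carcinoid 232 probe sets (7.01%, exact binomial 95% interval 6.16 to 7.93%) were at least 2-fold higher and 207 (6.25%, 5.45 to 7.13%) at least 2-fold lower. The interval covers the sampling of probe sets only. At 4-fold the counts were 9 higher (0.272%) and 12 lower (0.362%). A further 278 probe sets had a bound of at least 2-fold higher and 319 of at least 2-fold lower, with the second array under the floor. The higher ones made up 52.8% of the 2-fold differences on both arrays, but 61.9% in the intensities as deposited and 86.7% after scaling to the bacterial controls, which moved the median gene up by 0.46. Directions below are therefore relative to the median of all genes.

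**Figure D1:**
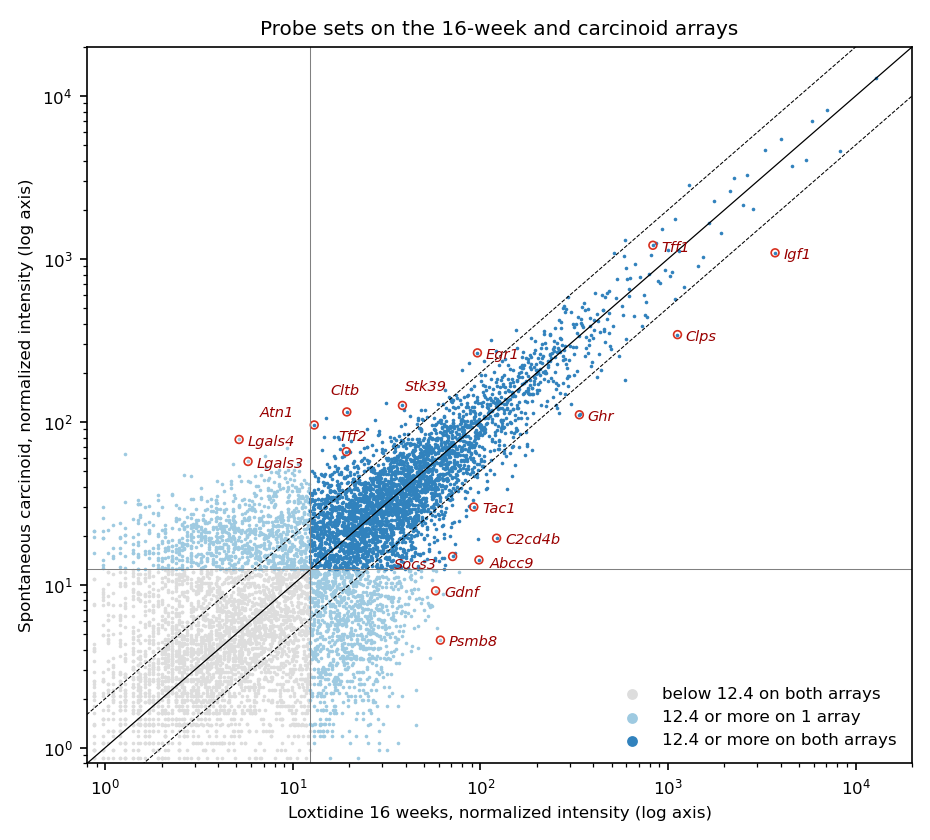
Normalized intensity of every non-control probe set at 16 weeks of loxtidine (x axis) and in the spontaneous carcinoid (y axis), both on log axes. Each point is a probe set, dashed lines mark 2-fold, grey lines mark the floor of 12.4, and circles mark named genes. Most probe sets above the floor on both arrays lie within the 2-fold lines, and the points spread more widely towards the floor.

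The size of a difference depended strongly on brightness. Among probe sets whose dimmer value lay between 12.4 and 30, 20.6% were at least 2-fold apart (11.1% higher and 9.42% lower in the carcinoid, n = 1688). From 30 to 100 the share was 5.94% (n = 1228), from 100 to 300 it was 4.70% (n = 298), and at 300 or more it was 5.15% (n = 97). These limits were chosen after the values were seen. Of the 21 probe sets at least 4-fold apart, 20 had a dimmer value under 30, and the remaining one had 31.4. With both values at 30 or more, 44 of 1623 probe sets (2.71%) were at least 2-fold higher and 48 (2.96%) at least 2-fold lower.

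**Figure D2:**
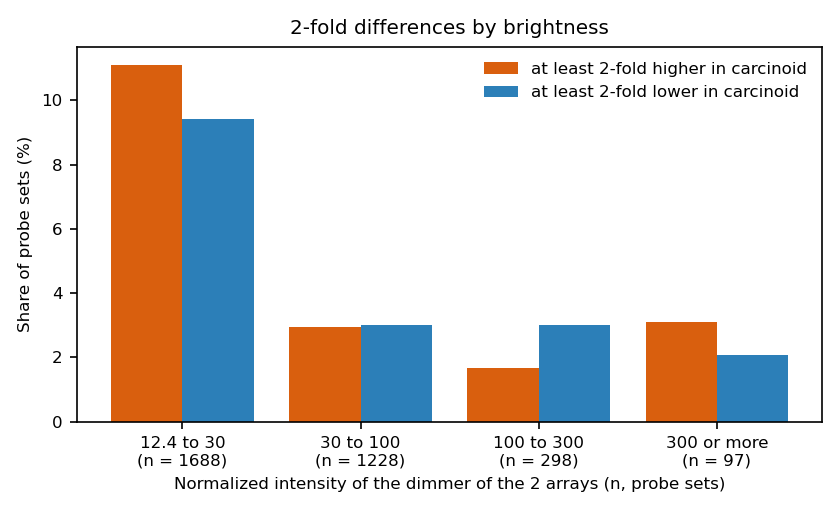
Share of probe sets at least 2-fold higher (orange) or lower (blue) in the carcinoid than at 16 weeks, in percent, by the normalized intensity of the dimmer of the 2 arrays. Numbers under each pair of bars give the probe sets in that class. The dimmest class holds 11.1% higher and 9.42% lower, and no other class exceeds 3.09% either way.

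Genes took the value of their brightest probe set, which gave 4736 genes, 2136 measured on both arrays and 1159 with a bound. Of these 3295 genes, 310 (9.41%) were at least 2-fold higher in the carcinoid and 306 (9.29%) at least 2-fold lower, bounds included. Above 0 lay 50.2% of them, and below 0 lay 49.6%. These shares are the background for the gene lists that follow. Order-statistic intervals given with list medians cover the genes of a list only, and hold no variation between animals or arrays. The only error these arrays hold is the disagreement between probe sets of 1 gene, which came to 0.62 on the log2 scale over 457 genes. A single difference smaller than this cannot be told from the choice of probe set. A larger one may not hold on another probe set either, as given below for 2-fold differences.

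Markers of ECL and other neuroendocrine cells read mostly lower in the carcinoid. Of 20 markers with a probe set, 14 reached the floor on at least 1 array, and 11 of those lay below 0. Their median was -0.69 (order-statistic 95% interval over genes -1.0 to 1.04) against 0.01 for all genes, and -0.70 to -0.13 over the alternative settings. Past 2-fold, 2 members were lower (14.3%, against 9.29% of all genes) and 3 higher (21.4%, against 9.41%). The summed intensity of the 20 was 615 at 16 weeks and 430.1 in the carcinoid, and 12 reached the floor on each array.

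The genes that define the ECL cell gave an incomplete picture. Hdc read 4.77 at 16 weeks and 3.20 in the carcinoid, below the floor on both arrays and also at 8 weeks. Slc18a2, the vesicular monoamine transporter that loads histamine, read 42.3 and 23.2, which is 1.82-fold lower in the carcinoid. Its other probe set stayed below the floor. Cckbr read 56.5 at 16 weeks and 35.2 in the carcinoid (1.60-fold lower), and its second probe set, at 33.4 and 2.83, was at least 2.69-fold lower. Both Cckbr probe sets therefore pointed the same way. Chga had no probe set with a single gene symbol and is not analysed here.

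Secretory granule proteins differed by gene and by probe set. Chromogranin B, Chgb, a granule matrix protein, read 35.4 and 17.7, 2.0-fold lower in the carcinoid. Vgf, a granule peptide precursor, read 42.8 and 14.2, 3.02-fold lower. Scg5, the chaperone of prohormone convertase, was at least 2.71-fold lower by its brightest probe set (33.6 and 10.3) but at least 2.09-fold higher on the other (8.77 and 25.9). The amidating enzyme Pam was 1.68-fold lower by its brightest probe set (211 and 126), while a second probe set read 67.8 and 67.7. Carboxypeptidase E, Cpe, read 22.8 and 22.5, and the vesicle protein synaptophysin, Syp, 33.6 and 26.7. Of the members higher in the carcinoid, the adhesion molecule Ncam1 read 15.3 and 35.5 (2.32-fold) by its brightest probe set but was at least 1.59-fold lower on the other. Reg1a, a regenerating protein whose expression gastrin is known to raise in ECL cells, was at least 2.05-fold higher (3.93 and 25.5), whereas the other probe set, at 20.9 and 2.83, was at least 1.68-fold lower. Uchl1, a neuroendocrine ubiquitin hydrolase, was at least 2.16-fold higher (12.3 and 26.8), with its other probe sets below the floor.

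Parietal cell genes were mostly within 2-fold between the arrays. Of 9 measured markers 1 was at least 2-fold higher (11.1%, against 9.41% of all genes) and none lower (against 9.29%). The list's median was -0.12 (-0.16 to 1.70 over the alternatives, the latter with Kcnj15 alone). Atp4a, the catalytic subunit of the proton pump, read 1449 at 16 weeks and 903 in the carcinoid, 1.60-fold lower. Its other probe sets gave 1.73-fold and 1.93-fold lower values, so all 3 pointed the same way. The pump's second subunit, Atp4b, was 1.22-fold lower by its brightest probe set (143 and 117), and the other gave 1.24-fold (156 and 126). Carbonic anhydrase 2, Car2, which supplies protons, read 211 and 284, 1.35-fold higher. Kcnj15, a potassium channel subunit of the parietal cell, was at least 3.25-fold higher in the carcinoid (8.40 and 40.3). Summed over 13 parietal markers the intensity was 2224 and 1711.

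Chief cell genes were bright and somewhat lower in the carcinoid. Pepsinogen C, Pgc, read 4589 and 3724 (1.23-fold lower), the acidic chitinase Chia 5448 and 4026 (1.35-fold lower) and intrinsic factor, Cblif, 512 and 386 (1.33-fold lower). None of these exceeded the disagreement between probe sets. Bhlha15, the transcription factor that matures zymogen cells, was at least 2.83-fold lower (35.1 and 4.77). Gastric lipase, Lipf, was at least 1.71-fold higher (4.40 and 21.2). The median of the 6 chief cell genes was -0.42, and the summed intensity 10606 and 8165. Of the parietal markers 8 of 13 reached the floor on each array, and of the chief cell markers 5 and 4 of 6. Atp4a, Atp4b, Car2, Pgc, Chia and Cblif thus stood well above the floor in both samples, which the labels call enriched for ECL cells while naming gastric mucosa as the source.

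Mucous cell genes included the trefoil peptides, small secreted proteins that protect and repair the epithelium, and these differed in direction. Tff2, the trefoil peptide of mucous neck and antral gland cells, read 19.3 at 16 weeks and 65.6 in the carcinoid, 3.41-fold higher, with 44.8 at 8 weeks. Tff3, the trefoil peptide of goblet cells, read 60.0 and 25.2, 2.38-fold lower. Tff1, the trefoil peptide of surface mucous cells, read 831 and 1213, 1.46-fold higher. Each of the 3 has a single probe set here.

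Among the mucins 1 was past 2-fold. Muc13, a transmembrane mucin, read 18.6 and 37.5 (2.02-fold higher), and its second probe set was at least 1.24-fold higher. Muc5ac, the surface mucin of the stomach, was 1.26-fold higher by its brightest probe set (168 and 213) but 1.37-fold lower on the other (79.2 and 57.7). Muc2 (17.4 and 30) and Muc4 (21.1 and 36.1) were each 1.72-fold higher. Muc1 read 119 and 109.8, and the gastrokine Gkn1 26.2 and 28.7. Of 10 mucous cell genes 2 were at least 2-fold higher and 1 lower, with a median of 0.44 (0.29 to 1.07 over the alternatives).

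Galectins, which bind galactose-containing sugars on glycoproteins, held 2 of the largest differences. Lgals4, a galectin of the digestive epithelium, read 5.17 at 16 weeks and 77.9 in the carcinoid, at least 6.28-fold higher, and 7.17 at 8 weeks. Lgals3 read 5.77 and 57.1, at least 4.61-fold higher, and 8.03 at 8 weeks. Both were thus below the floor under loxtidine at either time and above it in the carcinoid only. Each rests on 1 probe set. The other galectins were not alike, with Lgals8 1.80-fold higher (15.0 and 27.0), Lgals1 1.57-fold lower (46.2 and 29.5) and Lgals9 1.17-fold lower (41.8 and 35.8). Over 6 measured genes the median was 0.41, and -0.02 to 0.92 over the alternatives.

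Keratins and junction proteins showed no common direction. Krt8, a keratin of simple epithelium, read 118 and 203, 1.72-fold higher. Its partner Krt18 was 1.09-fold higher by its brightest probe set (110.4 and 121) and 1.75-fold higher on the other (78.3 and 137). Krt19, a keratin of ductal and progenitor epithelium, disagreed between probe sets, at 2.99-fold higher (15.8 and 47.4) and 1.94-fold lower (38.9 and 20). Krt20 was below the floor on both arrays (3.77 and 2.83). Krt14, a basal keratin of stratified epithelium, was at least 2.97-fold lower (36.9 and 3.30), and the tight junction claudin Cldn7 2.35-fold lower (31.7 and 13.5). Plakoglobin, Jup, which links cadherins to the cytoskeleton, was at least 2.84-fold higher (3.93 and 35.2). Of 11 keratin and junction genes, 2 were at least 2-fold higher (18.2%, against 9.41% of all genes) and 2 lower (18.2%, against 9.29%). The list's median was 0.23 (-0.09 to 0.79 over the alternatives).

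**Figure D3:**
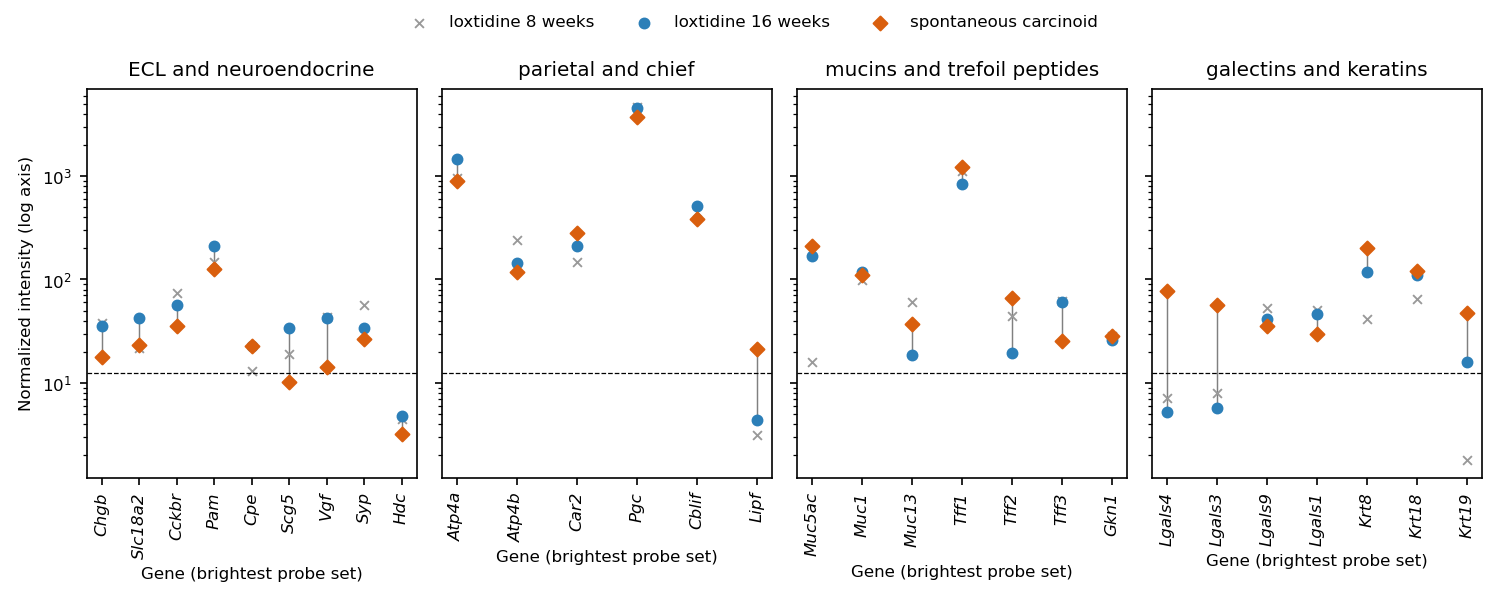
Normalized intensity (log axis) of selected gastric genes at 8 weeks of loxtidine (grey crosses), 16 weeks of loxtidine (blue circles) and in the spontaneous carcinoid (orange diamonds), 1 array each, by each gene's brightest probe set. The dashed line is the floor of 12.4. Lgals4 and Lgals3 stand above the floor in the carcinoid only, Tff2 and Tff3 differ in opposite directions, and Hdc lies below the floor on every array.

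Of 16 genes of other gut hormones and neuropeptides, 7 reached the floor on each array. Tac1, the precursor of substance P, read 92.2 at 16 weeks and 30 in the carcinoid, 3.07-fold lower, and 6.70 at 8 weeks, so the 16-week array held its highest value. Its second probe set stayed below the floor. Somatostatin, Sst, the D cell hormone that restrains gastrin and ECL cells, read 199.6 and 149.7 by its brightest probe set (1.33-fold lower) and 101 and 95.6 on the other. Gastrin, Gast, was below the floor on both arrays (8.77 and 3.87). Over 9 hormone genes 1 was at least 2-fold lower (11.1%, against 9.29% of all genes) and none higher (against 9.41%). The list's median was 0.02.

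Genes of the exocrine pancreas were detected on both gastric arrays. They read lower in the carcinoid for 8 of 13 measured members and higher for 5, where 49.6% of all genes lay below 0. Colipase, Clps, the cofactor of pancreatic lipase, read 1124 and 343, 3.27-fold lower, and 1059 at 8 weeks. The secreted phospholipase Pla2g1b read 8264 and 4589, 1.80-fold lower, and 4589 at 8 weeks. The regenerating protein Reg3b was at least 3.61-fold lower (44.8 and 11.8), carboxypeptidase Cpa1 at least 2.44-fold lower (30.2 and 2.73) and trypsinogen Prss1 at least 2.05-fold lower (25.5 and 3.77). Pancreatic lipase, Pnlip, went the other way at 9.57 and 32.6, at least 2.63-fold higher, and stood at 128 at 8 weeks. Pnliprp2 was also at least 2.03-fold higher (4.77 and 25.2). Smaller differences in that direction were those of Cel (46.3 and 71.5), Amy2a3 (40.4 and 50.9) and Cela1 (16.4 and 21.2). In all 4 members were at least 2-fold lower (30.8%, against 9.29% of all genes) and 2 higher (15.4%, against 9.41%). The list's median was -0.13 (-0.32 to 0.15 over the alternatives). The summed intensity of 16 pancreatic markers was 9676 at 16 weeks and 5202 in the carcinoid, with 11 and 8 at the floor or above, and Pla2g1b and Clps made up most of each sum. Their part in the other results was not tested.

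Markers of stroma, vessels and blood cells differed gene by gene. Of 20 leukocyte and MHC class II genes 1 was at least 2-fold higher and 3 lower (median 0.18). Ly6c, a surface antigen of monocytes, read 17.2 and 51.6 (2.99-fold higher), whereas Cd8a of cytotoxic T cells was at least 3.32-fold lower (41.2 and 6.70) and the monocyte receptor Cd14 2.02-fold lower (56.9 and 28.2). The second Cd14 probe set read 27.4 and 25.7. Of 7 measured mast cell genes 5 lay below 0 (median -0.09). Past 2-fold 1 was higher (14.3%, against 9.41% of all genes) and none lower (against 9.29%). That gene, Cma1, the mast cell chymase, was 2.61-fold higher (12.5 and 32.8), with the 16-week value at the floor. The brighter mast cell genes Tpsb2 (73.9 and 69.5) and Tpsab1 (37.9 and 37.8) hardly differed. Among 9 endothelial genes the nitric oxide synthase Nos3 was at least 4.29-fold lower by its brightest probe set (53.2 and 7.53), but further Nos3 probe sets were at least 1.79-fold lower, at least 1.75-fold higher and 1.55-fold higher. The list's median was -0.33 (-0.42 to 0.65 over the alternatives). Of 7 smooth muscle genes 6 lay above 0 (median 0.30), yet none reached 2-fold higher and Actg2 was at least 2.12-fold lower (26.3 and 8.90). Erythroid genes had no member 2-fold apart (7 genes, median -0.20). Of 11 neuron and glia genes (median 0.02) 1 was lower (9.09%, against 9.29% of all genes).

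Matrix genes likewise showed no common direction (22 genes, median 0.16). Elastin, Eln, was at least 3.74-fold higher (8.40 and 46.4) and tenascin C, Tnc, a matrix protein of remodelling tissue, at least 2.86-fold higher (9.57 and 35.5), with its second measured probe set at least 1.69-fold higher. Sparc, a collagen-binding matricellular protein, was 2.78-fold lower by its brightest probe set (107 and 38.5), and its others ran from 1.77-fold lower to 1.09-fold higher. Of the protease system, the inhibitor Timp2 was 2.43-fold higher (33.0 and 80.4), the urokinase Plau 2.16-fold higher (15.9 and 34.4) and the sheddase Adam10 at least 2.17-fold lower (26.9 and 4.43). Timp2 is the only one of these 3 with both values at 30 or more.

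Growth factor genes lay below the median of all genes more often than above it. In the list of FGF, PDGF, HGF, VEGF and neurotrophic factors 18 of 23 measured genes lay below 0. The list's median was -0.51 (order-statistic interval over genes -0.75 to -0.11) against 0.01 for all genes, and -0.53 to 0.37 over the alternatives. At 2-fold 4 were lower (17.4%, against 9.29% of all genes) and 1 higher (4.35%, against 9.41%). After scaling to the bacterial controls 5 of 26 were lower and 5 higher, 19.2% each, against 6.26% and 25.4% of all genes. Gdnf, which supports enteric neurons, read 57.7 and 9.17, at least 4.65-fold lower, and 58.1 at 8 weeks. Met, the receptor of hepatocyte growth factor, was at least 3.64-fold lower (45.1 and 1.37), while its other probe sets gave bounds of 1.77-fold and 1.09-fold lower. The vascular growth factor Vegfa was 1.44-fold lower by its brightest probe set (88.1 and 61.0). Another of its probe sets was 2.10-fold lower (42.4 and 20.2), and the next at least 2.97-fold lower (36.9 and 10.5). Its relative Vegfb was at least 2.31-fold lower (28.7 and 4.83). Fgf1 went the other way, at least 3.48-fold higher (5.27 and 43.1).

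Of the insulin-like growth factor system, 9 of 11 measured genes lay below 0 (median -0.43, -0.45 to 0.07 over the alternatives). Igf1, a growth factor that acts on neighbouring cells, read 3724 and 1090 by its brightest probe set, 3.42-fold lower, with 373 at 8 weeks. A further pair of Igf1 probe sets, each giving a bound, read 41.7 and 8.40 (at least 3.36-fold lower) and 42.9 and 3.93 (at least 3.46-fold lower). This pair was made from the same sequence. The remaining Igf1 probe sets stayed below the floor on both arrays, at 3.03 and 2.07, and at 5.93 and 1.63. The last of these was made from the same sequence as the brightest. The brightest Igf1 probe set is of a type designed with relaxed selection rules, so the identity of its signal is uncertain. The growth hormone receptor Ghr, chosen after its value was seen, read 337 and 110.5, 3.05-fold lower, with its other probe sets below the floor. Igf2 was 1.35-fold lower by its brightest probe set (68.8 and 50.9), but others were at least 1.83-fold, 2.25-fold and 3.09-fold higher.

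In the TGF-beta, activin and BMP system (17 genes, median -0.25) the ligand Tgfb3 was lower on both probe sets, 2.07-fold (55.3 and 26.7) and 2.03-fold (35.2 and 17.3). The activin subunit Inhba was at least 3.30-fold lower (40.9 and 7.63), while Tgfb2 was at least 3.54-fold higher (7.03 and 43.9). None of the 5 measured genes of the EGF family and its receptors was 2-fold apart. Tgfa read 31.3 and 31.5, and the receptor Erbb2 43.4 and 31.3.

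Immediate early genes are switched on rapidly by growth signals or stress. Of 23 measured members 15 lay above 0 and 8 below. Past 2-fold 5 were higher (21.7%, against 9.41% of all genes) and 2 lower (8.70%, against 9.29%). The list's median was 0.39 (order-statistic interval -0.31 to 0.85, and 0.02 to 0.72 over the alternatives). After scaling to the bacterial controls 11 of 25 were higher (44%, against 25.4% of all genes) and 2 lower. The transcription factor Egr1 read 96.4 and 265 by its brightest probe set, 2.75-fold higher, and its others were 1.96-fold, 1.68-fold and 1.12-fold higher. The nuclear receptor Nr4a1 was 2.89-fold higher (28.9 and 83.7), and 2.09-fold on its second probe set (13.0 and 27.1). The mRNA-decay factor Zfp36 was 2.29-fold (24.1 and 55.2) and 1.43-fold higher, and Nfkbia, the NF-kappaB inhibitor, 2.78-fold higher (13.1 and 36.4). At 8 weeks the brightest probe sets of these 4 genes read 3126, 103, 179 and 133, above both other arrays. The carcinoid array thus lay between the loxtidine arrays for these probe sets. The 1.96-fold Egr1 probe set had another order, with 3.77 at 8 weeks, 19.4 at 16 weeks and 37.9 in the carcinoid. The 8-week array also had the highest 3' to 5' ratios, and the part of RNA quality in this order was not tested.

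Other members were mixed. Klf4, a regulator of gut epithelium, read 274 and 497 (1.82-fold higher), with its second probe set 2.07-fold higher (34.3 and 70.9). Klf6 (45.9 and 78.8) and Myc (13.1 and 22.7) were 1.72-fold and 1.73-fold higher. Nr4a2 (72.7 and 41.5) and Fosl2 (30.4 and 17.3) were each 1.75-fold lower. Jun was 1.73-fold higher by its brightest probe set (40 and 69.2), with another at 14.1 and 13.3. Fos was 1.31-fold higher by its brightest probe set (58.8 and 76.8) but 1.84-fold lower on another (55.4 and 30.2). Btg1, a restraint on proliferation and the fifth member past 2-fold, was 2.42-fold higher (27.8 and 67.2) and 1.28-fold lower on the second probe set. Dusp6, a phosphatase of the ERK pathway, was at least 2.18-fold lower (27.1 and 3.57), and Socs3 was the other lower member.

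Genes of cytokine signalling differed both ways. Socs3, the feedback inhibitor of JAK and STAT signalling, read 71.1 at 16 weeks and 14.9 in the carcinoid, 4.77-fold lower, and 16.0 at 8 weeks, so it was high at 16 weeks only. Stat5b, a transcription factor of the same pathway, read 72.6 and 24.4, 2.98-fold lower. Cebpb, a transcription factor of inflammation, was 2.57-fold higher (12.4 and 32.0). The immunoproteasome subunit Psmb8, induced by interferon, was at least 4.94-fold lower (61.2 and 4.57), the largest bound in that direction among genes. No other of 25 measured proteasome genes was 2-fold apart (median -0.03).

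Proliferation genes showed little difference. The median of 21 measured cell cycle and replication genes was -0.03 (-0.40 to 0.47 over the alternatives). None was at least 2-fold higher (against 9.41% of all genes) and 1 was lower (4.76%, against 9.29%). That gene, Pcna, the sliding clamp of DNA polymerase, was lower on both probe sets, 2.17-fold (59.4 and 27.3) and 2.16-fold (39.8 and 18.4). Foxm1, a transcription factor of dividing cells that was not on the list and was chosen after its value was seen, read 82.4 and 37.5, 2.20-fold lower. Of 13 apoptosis genes none was 2-fold higher (against 9.41% of all genes) and 2 were lower (15.4%, against 9.29%). The caspase Casp6 was at least 2.14-fold lower (26.6 and 1.90), and Diablo, which blocks caspase inhibitors, at least 2.06-fold lower (25.6 and 6.10).

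Cytosolic ribosomal protein genes read slightly higher in the carcinoid. Of 39 measured genes 29 lay above 0. The list's median was 0.43 (order-statistic interval over genes 0.17 to 0.57, and 0.41 to 1.09 over the alternatives). At 2-fold 5 were higher (12.8%, against 9.41% of all genes) and 2 lower (5.13%, against 9.29%). As deposited 10 were higher (25.6%, against 12% of all genes) and 2 lower, and after scaling to the bacterial controls 23 were higher (59.0%, against 25.4%) and none lower. Rps24 read 18.7 and 46.0 (2.46-fold higher) and Rpl36 20.8 and 44.6 (2.14-fold higher). Rpl6 was 2.0-fold higher by its brightest probe set (293 and 587) but 1.19-fold lower on the other (179.9 and 151). Rps9 (178 and 73.4) and Rpl4 (36.3 and 15.3) were 2.42-fold and 2.38-fold lower. Ribosomal protein genes have many near-identical pseudogene copies, so a probe set may bind more than its gene. Translation factors had a median of -0.02 over 24 genes.

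Subunits of the mitochondrial respiratory chain and ATP synthase were centred near 0 but had a tail of lower members. Of 53 measured genes 8 were at least 2-fold lower (15.1%, against 9.29% of all genes) and 2 higher (3.77%, against 9.41%), with a median of -0.11 (-0.19 to 0.41 over the alternatives). The lower members belonged to several complexes. For complex I, Ndufb2 read 172 and 62.8 (2.73-fold lower), Ndufs4 109 and 39.2 (2.79-fold lower) and Ndufb6 137 and 61.6 (2.22-fold lower). A second Ndufs4 probe set was 2.34-fold lower and the other at least 1.73-fold higher, and a second Ndufb6 probe set read 70.7 and 67.4. Of complex III, Uqcrfs1 was 2.24-fold lower by its brightest probe set (107 and 47.7) but 1.90-fold and 1.27-fold higher on its others. Of complex IV, Cox5b was 2.11-fold lower (147 and 69.9), with another probe set 1.48-fold higher. The ATP synthase subunit Atp5pd read 57.4 and 14.1, 4.07-fold lower. The mitochondrial ATP carrier Slc25a4 was 3.57-fold lower (46.4 and 13.0). Sdha of complex II went the other way, at least 2.85-fold higher (2.27 and 35.3). After scaling to the bacterial controls 5 members were higher (9.43%, against 25.4% of all genes) and 2 lower (3.77%, against 6.26%).

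Enzymes of drug and redox metabolism lay below the median of all genes more often than above it. Of 82 measured genes 55 lay below 0. The list's median was -0.33 (order-statistic interval over genes -0.56 to -0.13), and -0.46 to 0.10 over the alternatives. At 2-fold 14 were lower (17.1%, against 9.29% of all genes) and 5 higher (6.10%, against 9.41%), and after scaling to the bacterial controls 12 of 85 were lower (14.1%, against 6.26%) and 9 higher (10.6%, against 25.4%). Glutathione transferases were among the lower members, with Gstk1 at least 4.53-fold (56.2 and 12.3), Gstm7 at least 2.60-fold (32.2 and 8.30), Gsta3 at least 2.50-fold (31.0 and 5.67) and Gsta1 2.39-fold lower (33.2 and 13.9). Gstt2 of the same class went the other way (15.7 and 38.1, 2.42-fold higher). Among cytochromes P450, Cyp2b15 read 47.4 and 15.4 (3.08-fold lower), Cyp2a2 37.6 and 13.9 (2.71-fold lower) and Cyp2d4 255 and 122 (2.09-fold lower). Cyp2d4 is the only one of these with both values at 30 or more. Heme oxygenase, Hmox1, a stress-induced enzyme of heme breakdown, was at least 2.47-fold lower (30.6 and 4.77). Higher members included the mitochondrial superoxide dismutase Sod2 (16.0 and 32.5, 2.03-fold) and the sulfotransferases Sult2a1 (7.43 and 45.0, at least 3.63-fold) and Sult1b1 (9.87 and 41.2, at least 3.32-fold). Another Sult2a1 probe set was 1.82-fold lower. Probe sets of these families often match several relatives, so the member is uncertain.

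Ion channels and transporters held several of the largest single differences without a common direction. Abcc9, the sulfonylurea receptor subunit of ATP-sensitive potassium channels, read 98.2 at 16 weeks and 14.2 in the carcinoid, 6.93-fold lower, and 87.0 at 8 weeks. Its second measured probe set was at least 1.25-fold lower (15.5 and 1.40). The channel subunit Kcnh4 was at least 3.89-fold lower (48.2 and 12.1). Of 54 measured channel genes 5 were at least 2-fold higher and 5 lower, each 9.26%, close to the background. Among 84 solute carriers 8 were higher (9.52%) and 9 lower (10.7%), also close to it. Slc44a4, a transporter of choline and thiamine pyrophosphate in gut epithelium, read 14.7 and 80.5, 5.48-fold higher, and 11.1 at 8 weeks. The mitochondrial citrate carrier Slc25a1 read 17.4 and 80.4, 4.62-fold higher, and 80.4 at 8 weeks, so here the 16-week array was the low one. The sodium-calcium exchanger Slc8a1 was 3.06-fold higher (28.7 and 87.8), with a second probe set at least 1.62-fold higher.

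The remaining lists held single genes past 2-fold. Heat shock proteins and chaperones had a median of 0.04 over 21 genes, and only Hspb2, a small heat shock protein of muscle, passed 2-fold (57.6 and 14.5, 3.97-fold lower). Glycolytic enzymes had a median of -0.03 over 15 genes, with the phosphofructokinase Pfkl 2.99-fold higher (17.4 and 52.0) and the pyruvate kinase Pklr at least 2.37-fold lower (29.4 and 8.67). Vesicle fusion genes had a median of 0.08 over 32 genes. There the syntaxins Stx5 (25 and 69.6, 2.79-fold) and Stx4 (6.27 and 35.1, at least 2.83-fold) were higher, and Cadps, which primes dense-core granules for release, was at least 2.67-fold lower (33.2 and 3.87). Lysosomal genes had a median of -0.38 over 18 genes (-0.47 to 0.00 over the alternatives). Cathepsin E, Ctse, an aspartic protease of gastric mucosa, was 2.22-fold lower (31.8 and 14.3), and cathepsin C, Ctsc, at least 2.86-fold higher (4.83 and 35.5). Among 20 genes of lipid handling (median -0.18) the lipid carrier Apoe was 3.31-fold higher by its brightest probe set (18.3 and 60.5) but 1.33-fold lower on the other (31.3 and 23.5).

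**Figure D4:**
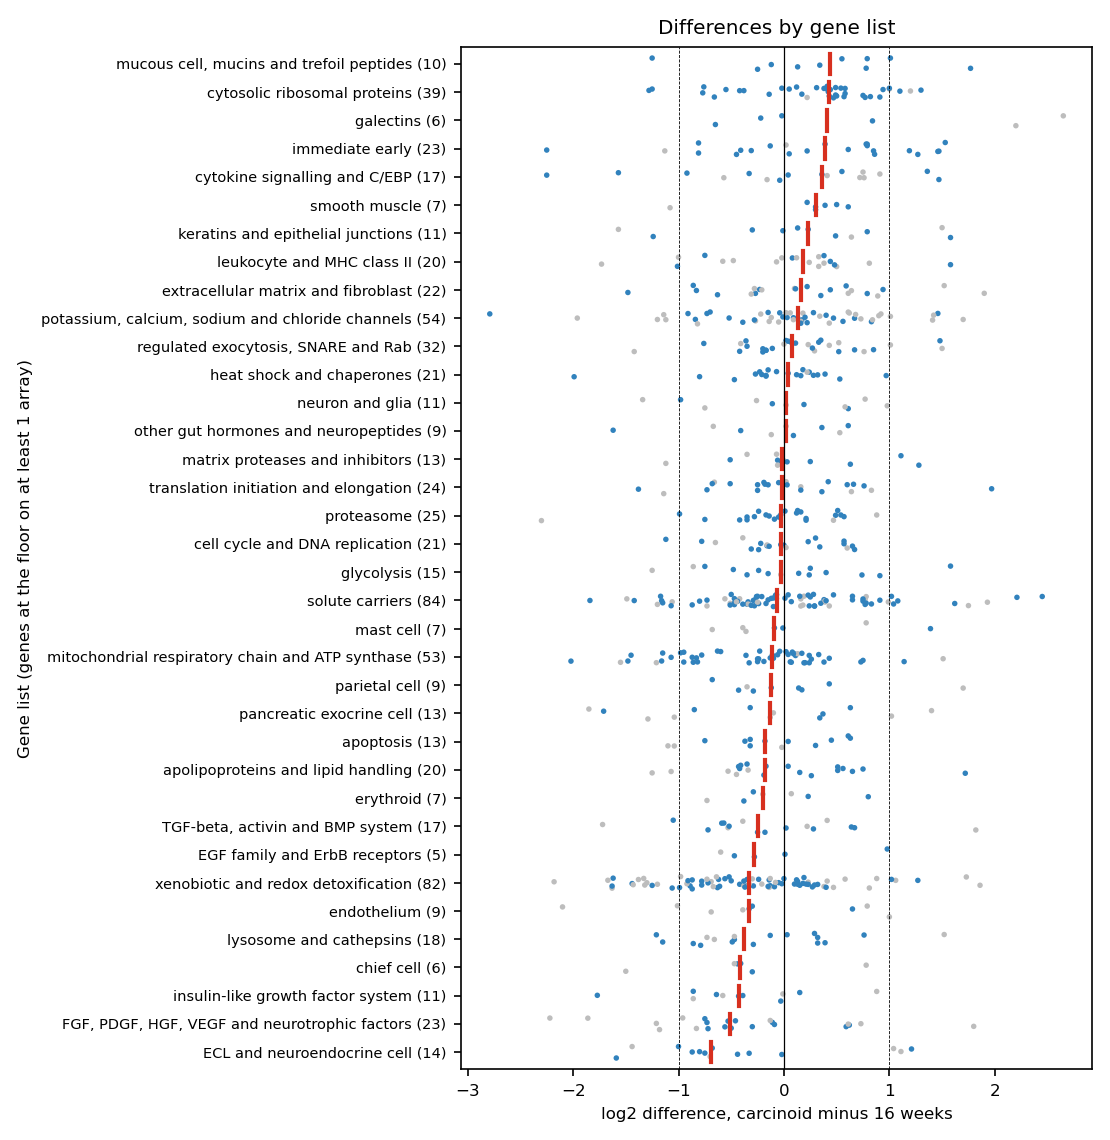
Differences of single genes (points) by gene list, as log2 of carcinoid minus 16 weeks, with each list's median as a red bar and the number of measured genes in brackets. Blue points are genes at the floor or above on both arrays, grey points are bounds, and dashed lines mark 2-fold. Medians run from -0.69 for ECL and neuroendocrine genes to 0.44 for mucous cell genes, and every list spreads to both sides of its median.

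The largest single differences mostly rested on a dim value. Among the 12 most different genes each way that were measured on both arrays, 23 of 24 had a dimmer value under 30. Atn1, a transcriptional corepressor, read 13.0 and 95.6 (7.35-fold higher), and Cltb, a clathrin light chain, 19.4 and 115 (5.93-fold higher). All other probe sets of Atn1 and Cltb stayed below the floor on both arrays, so each fold rests on 1 probe set. Also among the 12 higher genes were Mapkapk2, a kinase downstream of p38 (16.6 and 80.8, 4.87-fold), the RNA-binding protein Rbm24 (14.3 and 66.8, 4.67-fold) and Hgs, an endosomal sorting protein (17.7 and 78.3, 4.43-fold). In the other direction C2cd4b was 6.31-fold lower (122 and 19.3), the secreted chaperone clusterin, Clu, 5.05-fold lower (96.8 and 19.2) and the transcription factor Mef2d 4.63-fold lower (72.8 and 15.7). Ube2a, a ubiquitin-conjugating enzyme, was the exception with both values above 30 (139 and 38.9, 3.58-fold lower). Largest among the other bounds were Echs1, an enzyme of fatty acid oxidation (7.13 and 61.6, at least 4.97-fold higher), and Acr (58.6 and 5.40, at least 4.72-fold lower). Of the 21 probe sets at least 4-fold apart 7 had no single gene symbol.

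Genes with both values at 30 or more rest less on the floor. Among named probe sets, 32 were at least 2-fold higher and 35 at least 2-fold lower, covering 66 genes, and the examples here were chosen after their values were seen. Capn9, a calpain of the digestive tract, read 46.5 and 106 (2.28-fold higher), and the actin-capping protein Capg 30 and 68.0 (2.27-fold higher), each on its single probe set. The lipid flippase Atp9a was 2.61-fold higher (80.0 and 209), and 1.65-fold higher on another probe set (47.2 and 77.9). Ckmt1, a mitochondrial creatine kinase, was 3.03-fold higher by its brightest probe set (39.2 and 119) but 1.14-fold lower on the other (45.2 and 39.5). Gstp1, a glutathione transferase common in tumours, was 1.14-fold higher by its brightest probe set (100.1 and 114) and 2.46-fold higher on the second (48.0 and 118). For Stk39, a kinase that controls ion cotransporters, the brightest probe set was 3.27-fold higher (38.4 and 126), but another was 1.22-fold lower. Furin, a protease that cleaves proproteins, was 1.49-fold lower by its brightest probe set (1537 and 1030) and 2.01-fold on a dimmer one (174 and 86.8). Hadha of fatty acid oxidation was 1.91-fold lower by its brightest probe set (102 and 53.4) and 2.24-fold on the second (113 and 50.3), while the dimmest was 1.22-fold higher (29.3 and 35.8). Vamp2, a vesicle SNARE of regulated secretion, disagreed, at 1.25-fold higher by its brightest probe set (92.6 and 116) and 2.30-fold lower on the second (70.9 and 30.9). The translation helicase Eif4a2 was 1.60-fold lower by its brightest probe set (327 and 204) and 2.80-fold on another (189 and 67.6). The thyroid hormone receptor Thra was 3.18-fold lower (147 and 46.4), with another Thra probe set 1.16-fold lower (95.9 and 82.7).

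Probe sets of the same gene seldom agreed on a 2-fold difference, and agreed on direction about as often as not. Of 457 genes with at least 2 probe sets measured on both arrays, the 2 brightest of these had the same sign in 236 (51.6%) and lay over 1 apart on the log2 scale in 25.4%. Of all genes 50.2% lay above 0 and 49.6% below, so unrelated probe sets would share a sign about as often. Where all 4 values were 30 or more the spread was 0.49 (190 genes), and otherwise 0.70 (267 genes). The sign was shared in 52.6% of the former and 50.9% of the latter. The brightest probe set was at least 2-fold higher in 23 genes, and the second was so in 1 of them and above 0 in 10. It was at least 2-fold lower in 21 genes, and the second was so in 4 of them and below 0 in 10. Any such probe set was 2-fold apart in 117 genes, and all were apart the same way in 4. These were Nr4a1, higher, and Ndufs4, Pcna and Tgfb3, lower (without the bound of Ndufs4 the other way), and their paired probe sets were made from the same sequence in each case. Mapk14, the p38 kinase, was 2.27-fold (84.7 and 37.3) and 2.0-fold lower (69.8 and 34.9) by its brightest probe sets, yet 1.28-fold and 1.88-fold higher on others. Ywhaq and Ndufs8 had probe sets 2-fold apart in both directions.

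**Figure D5:**
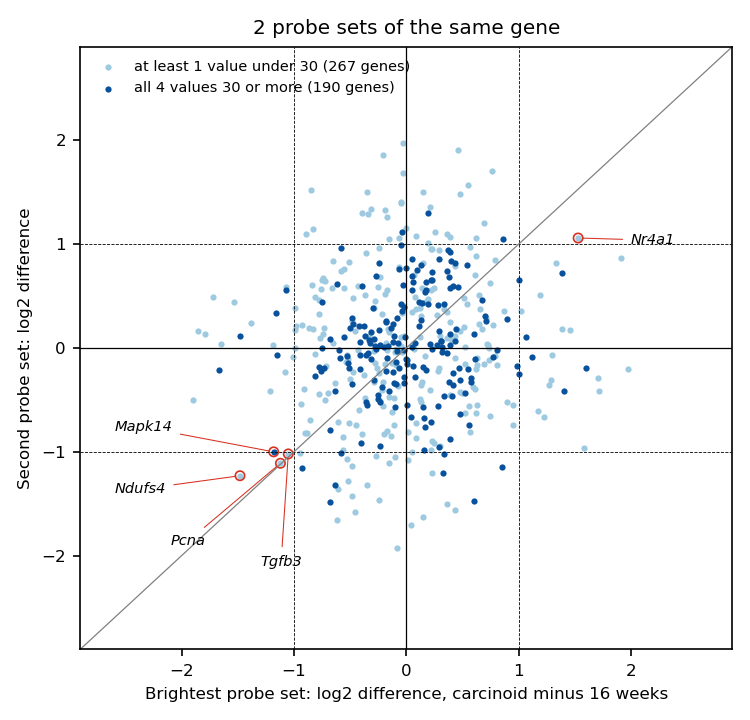
Difference of the brightest probe set of a gene (x axis) against that of its second brightest (y axis), each as log2 of carcinoid minus 16 weeks, for 457 genes with at least 2 measured probe sets. Dark points have all 4 values at 30 or more, dashed lines mark 2-fold, the grey diagonal marks equality, and red circles mark the 5 genes whose brightest pair passed 2-fold together. The points scatter around 0 in every direction, and both probe sets have the same sign in 51.6% of genes.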

How the data were processed

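RNA was hybridised to an Affymetrix rat array, 1 per sample, per the labels, and groups came from the sample descriptions. The deposited table holds 1 linear intensity per probe set, as made by the authors, with background correction and scaling not given in the sources used here. Array intensities give no depth, and the number of arrays limits precision. The 2.0% trimmed means of the 3 arrays (18.1 at 8 weeks, 25.5 at 16 weeks and 27.6 in the carcinoid) differed by over 5%, so the arrays were quantile-normalized. This hides any shift shared by most transcripts. Values under the floor, the pooled median of 12.4, were raised to it before log2. No significance test was possible with 1 array a group.

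Symbols came from the platform annotation supplied with the data. Of 8740 probe sets 7006 had 1 symbol, 308 several and 1426 none, and only the first kind was named. A gene took its probe set of highest mean deposited intensity. Named were the 12 largest differences and 6 largest bounds each way, up to 5 members a list, genes whose probe sets all passed 2-fold the same way, and a short set of gastric genes. Not all are printed, and other list members and bright genes were added after their values were seen. The 36 lists, the rule and the comparison were chosen with earlier results of these data known. The spread between probe sets is the root mean square difference of a gene's brightest pair over the square root of 2.

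Alternatives were the deposited values, scaling by the median, by the bacterial controls or over the 2 arrays alone, floors at the 25th (4.20) and 75th (30) percentiles, log2 of value plus floor, the median of a gene's probe sets, 1 probe set per gene, and probe sets from expressed sequence tags. Python 3.11.15, numpy 2.4.6, pandas 2.3.3 and scipy 1.17.1 were used, and the steps were tested on simulated data. The simulated noise was smaller than the spread between probe sets here, and differences were planted in brighter probe sets only. The test therefore does not cover dim values.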

Additional observations from a re-analysis of the deposited data

How the results depend on the processing

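The counts of probe sets at least 2-fold apart (232 higher, 207 lower, 13.3% of those measured) moved mainly with the floor and with the choice of scaling. As deposited, 15.4% were 2-fold apart and 61.9% of these were higher. Scaling by the bacterial controls gave 793 higher and 122 lower (25.2%, 86.7% of them higher). The floor at the 25th percentile gave 793 and 780 (28.1%), and at the 75th 44 and 48 (5.67%, 47.8% higher). Log2 of value plus floor, without a filter, gave 458 and 460 (10.5%). With 1 probe set per gene the counts were 145 and 119, and with probe sets from expressed sequence tags 93 and 78, where fewer probe sets entered.

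Of 165 genes at least 2-fold apart and tracked over the alternatives, 156 were so in the same direction as deposited, 164 after scaling by the median, 135 after scaling by the bacterial controls, 78 of 147 with the higher floor and 127 by the median of a gene's probe sets. That median turned Mapk14 to 0.35, Stk39 to -0.29 and Uqcrfs1 to 0.34. Sequence tags alone turned Anp32a to -0.09, Eef2k to 0.24, Stk39 to -0.29 and Uqcrfs1 to 0.34, because another probe set then stood for the gene. Scaling by the bacterial controls moved 17 of 36 list medians. No paired analysis was possible because each group has 1 array, and for the same reason no array could be left out.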
